A study of Homo sapiens with 60 samples.

Results

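The endoplasmic reticulum (ER) chaperones and the genes of the unfolded protein response were followed here as a group of 32 named genes, of the 60675 in the deposited table. The genes were taken by symbol, and all 32 were found and passed the filter on low counts that left 17190 genes. By role they were 8 chaperones and helpers of the ER lumen, 2 lectin chaperones, 6 genes of disulfide exchange, 2 secreted stress proteins, 7 genes of protein degradation, 5 stress sensors and factors and 2 genes of entry into or export from the ER. The RNA came from SW1783, an established human astrocytoma line, 24 h after the addition of a vehicle or of a water extract. The vehicle group (DMSO, given as 0.1% in the labels) had 3 libraries. The extracts were of Citri Unshius Pericarpium (mandarin peel), Cimicifugae Rhizoma (the rhizome of Cimicifuga), Bupleuri Radix (bupleurum root), Aconiti Lateralis Radix Preparata (processed aconite root) and the herbal formulas Yijung-tang and Banhasasim-tang. Each was used at a high dose of 500, a medium dose of 100 and a low dose of 20 µg/mL, with 3 libraries per dose. Another formula, Bojungikgi-tang, had 1 library per dose. All libraries were of 1 cell line in culture, and the labels do not give the DMSO content of the extract groups. Citri and Cimicifugae shared a code set in the labels, as did Bupleuri and Aconiti, and Yijung-tang and Banhasasim-tang, while the vehicle had a code of its own. The sources used here do not say what a code set stands for, so against the vehicle the extract and the code set cannot be told apart.

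The ER folds proteins that are to be secreted or placed in membranes. When unfolded proteins build up there, the membrane sensors IRE1 (gene ERN1), ATF6 and PERK (gene EIF2AK3) are activated. IRE1 splices the mRNA of the transcription factor XBP1, ATF6 is cut to release a transcription factor, and PERK phosphorylates eIF2α, which lowers protein synthesis and favours translation of ATF4. Together these arms raise chaperones such as BiP (gene HSPA5), folding enzymes and the machinery of ER-associated degradation. Values per gene do not show the splicing of XBP1, the cutting of ATF6 or any phosphorylation.

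ATF6 and XBP1 are known to act through the ER stress element, found in the promoters of many of these genes, and the sequences below show it in 6 of the members that hold it, 4 with its first form and 2 with its second. RefSeq promoter windows of GRCh38.p14, from 250 bases before to 50 after the annotated start, were at hand for 28 of the 32 members, without PDIA3, FKBP14, DERL1 and SEC24D. On both strands they were searched for the exact letters of the element, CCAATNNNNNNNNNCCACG, and of its second form, ATTGGNCCACG. The first form was found in 8 members (HSPA5, HSP90B1, CALR, CANX, PDIA6, ERO1B, CRELD2 and XBP1), which was 28.6% of the 28 against 0.0916% of the 27305 genes with a window. The second form was found in HYOU1, SDF2L1 and HERPUD1, which was 10.7% against 0.0696%. Each sequence is written 5′ to 3′ on the strand of the gene, with 15 flanking bases where the window allowed, and the capitals mark the element, which reads as its reverse complement in HYOU1, CALR and ERO1B.
HSPA5, minus strand, chr9:125241376-125241424: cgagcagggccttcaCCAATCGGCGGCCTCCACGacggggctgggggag
XBP1, minus strand, chr22:28800588-28800636: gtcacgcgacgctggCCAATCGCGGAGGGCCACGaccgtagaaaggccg
CALR, plus strand, chr19:12938369-12938417: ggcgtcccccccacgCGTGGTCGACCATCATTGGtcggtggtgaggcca
ERO1B, minus strand, chr1:236282168-236282208: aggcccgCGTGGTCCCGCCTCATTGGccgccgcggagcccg
HERPUD1, plus strand, chr16:56932010-56932050: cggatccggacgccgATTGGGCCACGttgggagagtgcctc
HYOU1, minus strand, chr11:119057259-119057405: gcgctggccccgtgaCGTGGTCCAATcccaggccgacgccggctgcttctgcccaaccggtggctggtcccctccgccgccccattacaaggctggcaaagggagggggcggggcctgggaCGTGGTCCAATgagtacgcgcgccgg
The element lay 66 to 48 bases before the annotated start in HSPA5 and 52 to 34 bases before it in XBP1, and HYOU1 held the second form 2 times. The pentamer CCACG, which both forms contain, was found in 21 of the 28 windows (75%, against 42.1% of genes). The letters TGACGTGG, given for the unfolded protein response element bound by XBP1, were found in HYOU1 (1 of 28, 3.57%, against 0.927%), where they overlap the first element shown. The element is already known from promoters of genes in this group, so its higher share among the members is not an independent result. A match of letters is a description of the window and not a measured binding site.

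Total counts per library were between 18.9 and 36.4 M (mega). Levels of cell markers are medians over all libraries in CPM (counts per 1 M counts of a library). Of the 10 listed astrocyte and glioma genes, VIM, CD44 and SOX9 had 4463, 2783 and 70 CPM, and SLC1A3 and NES 32.8 and 9.04 CPM. GFAP, S100B, AQP4, ALDH1L1 and SLC1A2 were near 0, with medians of 0.1034, 0.1028, 0, 0 and 0.3048. Defining genes of other cell types, AIF1 of microglia, CDH5 of endothelium and EPCAM of epithelium, had medians of 0. Other listed markers were expressed, with medians of 3255 CPM for COL1A1 and 1953 CPM for COL1A2 of fibroblasts, 156 CPM for CD68 and 12.98 CPM for PTPRC of leukocytes and 103 CPM for TUBB3 and 33.6 CPM for SNAP25 of neurons. The third high-dose library of Cimicifugae and the third low-dose library of Citri stood apart from their replicates. Their mitochondrial shares were 7.69% and 7.37% of counts. Some results that rest on these libraries are given without them too, while several counts of members are given only with them. In bulk RNA, fewer cells of a kind and less RNA per cell cannot be told apart. The labels do not say that replicates were separate cultures, so the error behind each test may be technical rather than biological.

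Members were compared with edgeR's quasi-likelihood test over all genes, and a gene counted as changed when its p, adjusted by Benjamini-Hochberg, was under 0.05. Changes are log2 fold changes with a standard error (SE). The SE is the size of the change divided by the square root of the test's F value. Levels are CPM scaled by TMM factors, but those of the cell markers, and their sums, are scaled by total counts alone. The shares of all tested genes called in the same comparison are given as background. All comparisons with the vehicle share its 3 libraries, so the extracts' values are set side by side only.

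**Figure D1:**
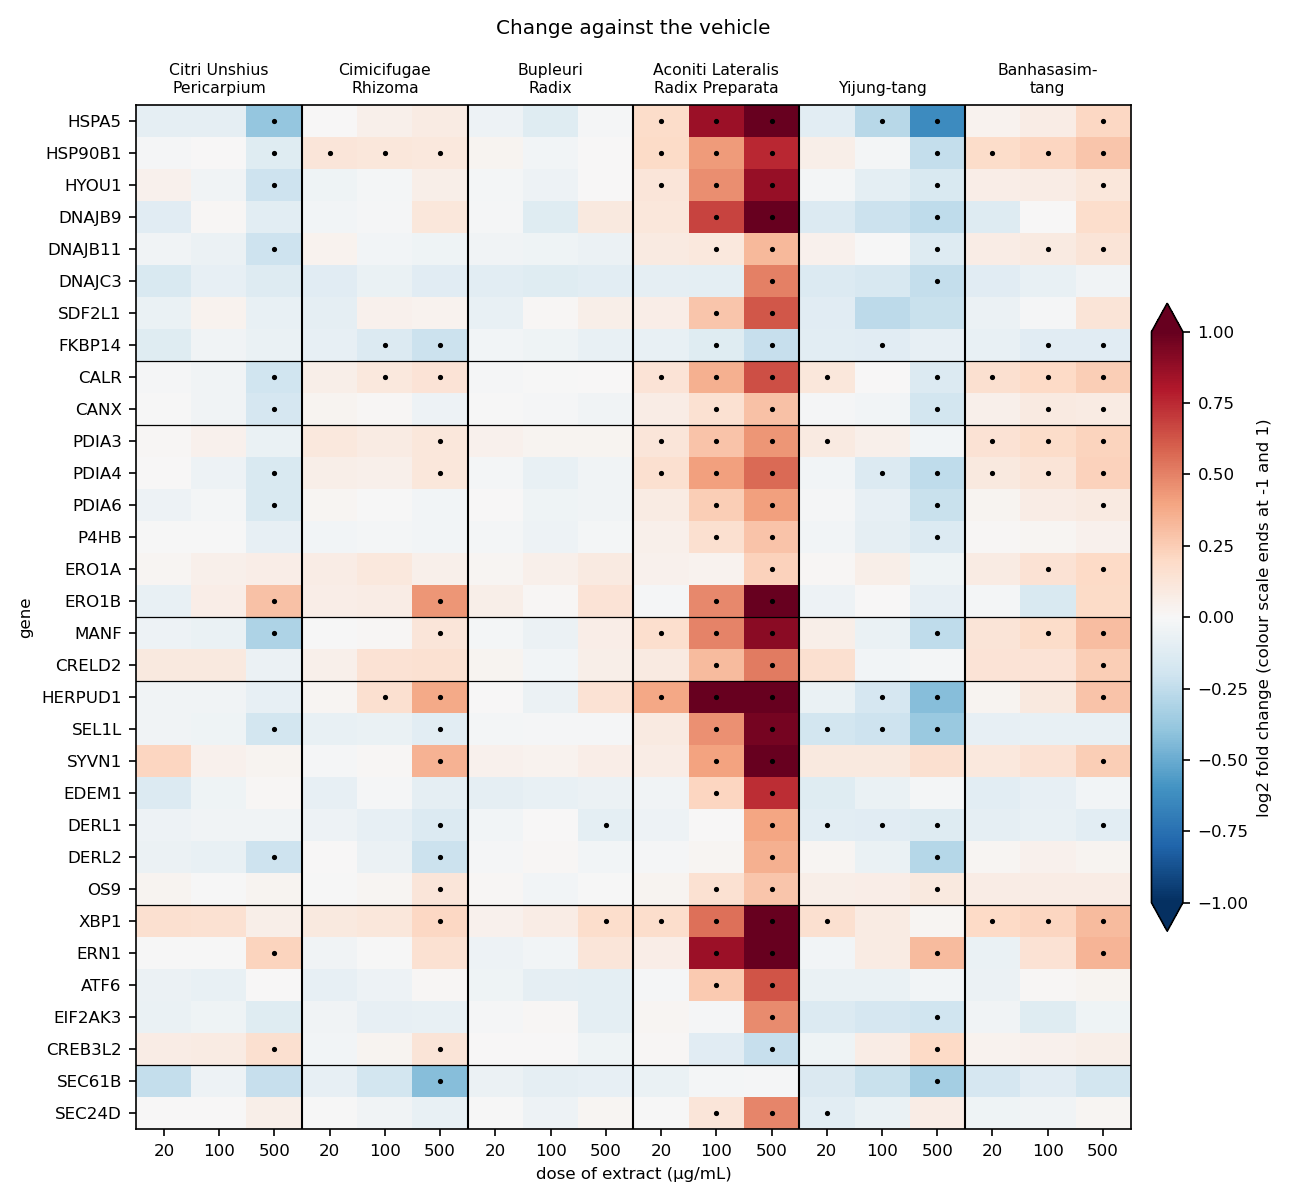
Change of each of the 32 genes against the vehicle, on the log2 scale (colour, ending at -1 and 1), for 6 extracts at 20, 100 and 500 µg/mL, with 3 libraries per group. Black dots mark changes called with edgeR, thin lines part the roles, and the column of Aconiti at 500 µg/mL holds 29 called rises and 2 called falls.

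Almost the whole group was higher with Aconiti. At the high dose 29 of the 32 genes rose and 2 fell against the vehicle, where 31.5% of all genes rose and 28.9% fell. The median change of the members was 0.54, beside 0.01 for all genes tested. At least a doubling was called for 7 members (HERPUD1, ERN1, DNAJB9, HSPA5, XBP1, ERO1B and SYVN1), against 5.08% of all genes. The members together made up 2.85% ± 0.05 (SD, n = 3) of all counts at this dose and 1.58% ± 0.01 (n = 3) in the vehicle.

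HSPA5, the main Hsp70 chaperone of the ER lumen, had levels of 3670, 3607 and 3676 CPM in the 3 vehicle libraries. It had 4112, 4196 and 4110 CPM at the low dose of Aconiti, 6662, 6689 and 6507 CPM at the medium dose and 13404, 13539 and 12765 CPM at the high dose. Each dose lay above the one before it with no overlap between libraries. The change at the high dose was 1.86 (SE 0.04, adjusted p = 9.9e-40 with edgeR), and it was 0.18 at the low dose (SE 0.04, adjusted p = 0.0015 with edgeR).

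The other chaperones of the lumen rose by less, apart from DNAJB9 (ERdj4), an Hsp40 partner of BiP. DNAJB9 had levels of 35.5, 33.5 and 33.0 CPM in the vehicle and 132, 134 and 132 CPM at the high dose of Aconiti, a change of 1.97 (SE 0.07). HSP90B1 (GRP94), the Hsp90 of the ER, had 1567, 1557 and 1510 CPM in the vehicle and 2580, 2637 and 2596 CPM at the high dose, a change of 0.75 (SE 0.03). For both genes the high-dose libraries lay above the vehicle with no overlap. HYOU1, an exchange factor of BiP, rose by 0.87 (SE 0.04), SDF2L1 by 0.62 (SE 0.10), DNAJC3 by 0.51 (SE 0.05) and DNAJB11 by 0.32 (SE 0.03). FKBP14, a peptidyl-prolyl isomerase that acts on collagen, went the other way, from 126, 131 and 128 CPM in the vehicle to 110, 108 and 110 CPM. That was a fall of 0.23 (SE 0.04, adjusted p = 3.8e-07 with edgeR), again with no overlap.

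Calreticulin (CALR) and calnexin (CANX), the lectins that hold newly made glycoproteins, rose by 0.64 (SE 0.03) and 0.29 (SE 0.03). All 6 genes of disulfide exchange rose, with a median of 0.43. ERO1B, an oxidase that recharges protein disulfide isomerases, rose most among them, by 1.27 (SE 0.08), with 13.7, 13.1 and 12.7 CPM in the vehicle and 30.5, 33.3 and 31.5 CPM at the high dose. Its relative ERO1A rose by 0.23 (SE 0.04). Among the isomerases PDIA4 rose by 0.56 (SE 0.03), PDIA3 by 0.44 (SE 0.03), PDIA6 by 0.41 (SE 0.03) and P4HB by 0.29 (SE 0.03), and reads of PDIA3 may be split with its pseudogenes. Of the secreted stress proteins, MANF rose by 0.90 (SE 0.04), and CRELD2 by 0.52 (SE 0.07).

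All 7 genes of degradation rose, and HERPUD1, a membrane protein that helps to assemble the ER-associated ubiquitin ligase, had the largest change of the group. Its levels were 81.6, 77.3 and 78.8 CPM in the vehicle, 101, 110 and 99.3 CPM at the low dose of Aconiti, 191, 198 and 191 CPM at the medium dose and 513, 520.5 and 507 CPM at the high dose. No libraries overlapped between these 4 groups. The change was 2.7 at the high dose (SE 0.05, adjusted p = 6.9e-42 with edgeR). SYVN1 (HRD1), the ligase, rose by 1.00 (SE 0.08) and its partner SEL1L by 0.96 (SE 0.03). SYVN1 shares exon positions with FAU on the same strand, so its counts are uncertain. EDEM1, which marks misfolded glycoproteins by trimming their sugars, rose by 0.74 (SE 0.06), and the channel proteins DERL1 and DERL2 by 0.39 (SE 0.03) and 0.36 (SE 0.06). The lectin OS9 rose by 0.28 (SE 0.03).

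The sensors were among the genes that moved. ERN1 (IRE1) had 18.4, 21.1 and 19.1 CPM in the vehicle, 36.6, 34.1 and 35.6 CPM at the medium dose of Aconiti and 85.1, 85.3 and 81.6 CPM at the high dose. Its change at the high dose was 2.10 (SE 0.06, adjusted p = 1.3e-34 with edgeR). XBP1 had 103, 95.3 and 103 CPM in the vehicle and 238, 245 and 251 CPM at the high dose, a change of 1.29 (SE 0.05). Neither gene's high-dose libraries overlapped with the vehicle. ATF6 rose by 0.63 (SE 0.03) and EIF2AK3 (PERK) by 0.47 (SE 0.06). CREB3L2, a membrane-bound transcription factor of the same family as ATF6 that is known for raising secretory genes, fell by 0.23 (SE 0.05, adjusted p = 3.2e-05 with edgeR). Of the last 2 members, SEC24D, a coat protein of vesicles that leave the ER, rose by 0.49 (SE 0.03), while SEC61B, a subunit of the translocation channel, was at -0.02 (SE 0.11, adjusted p = 0.91 with edgeR).

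**Figure D2:**
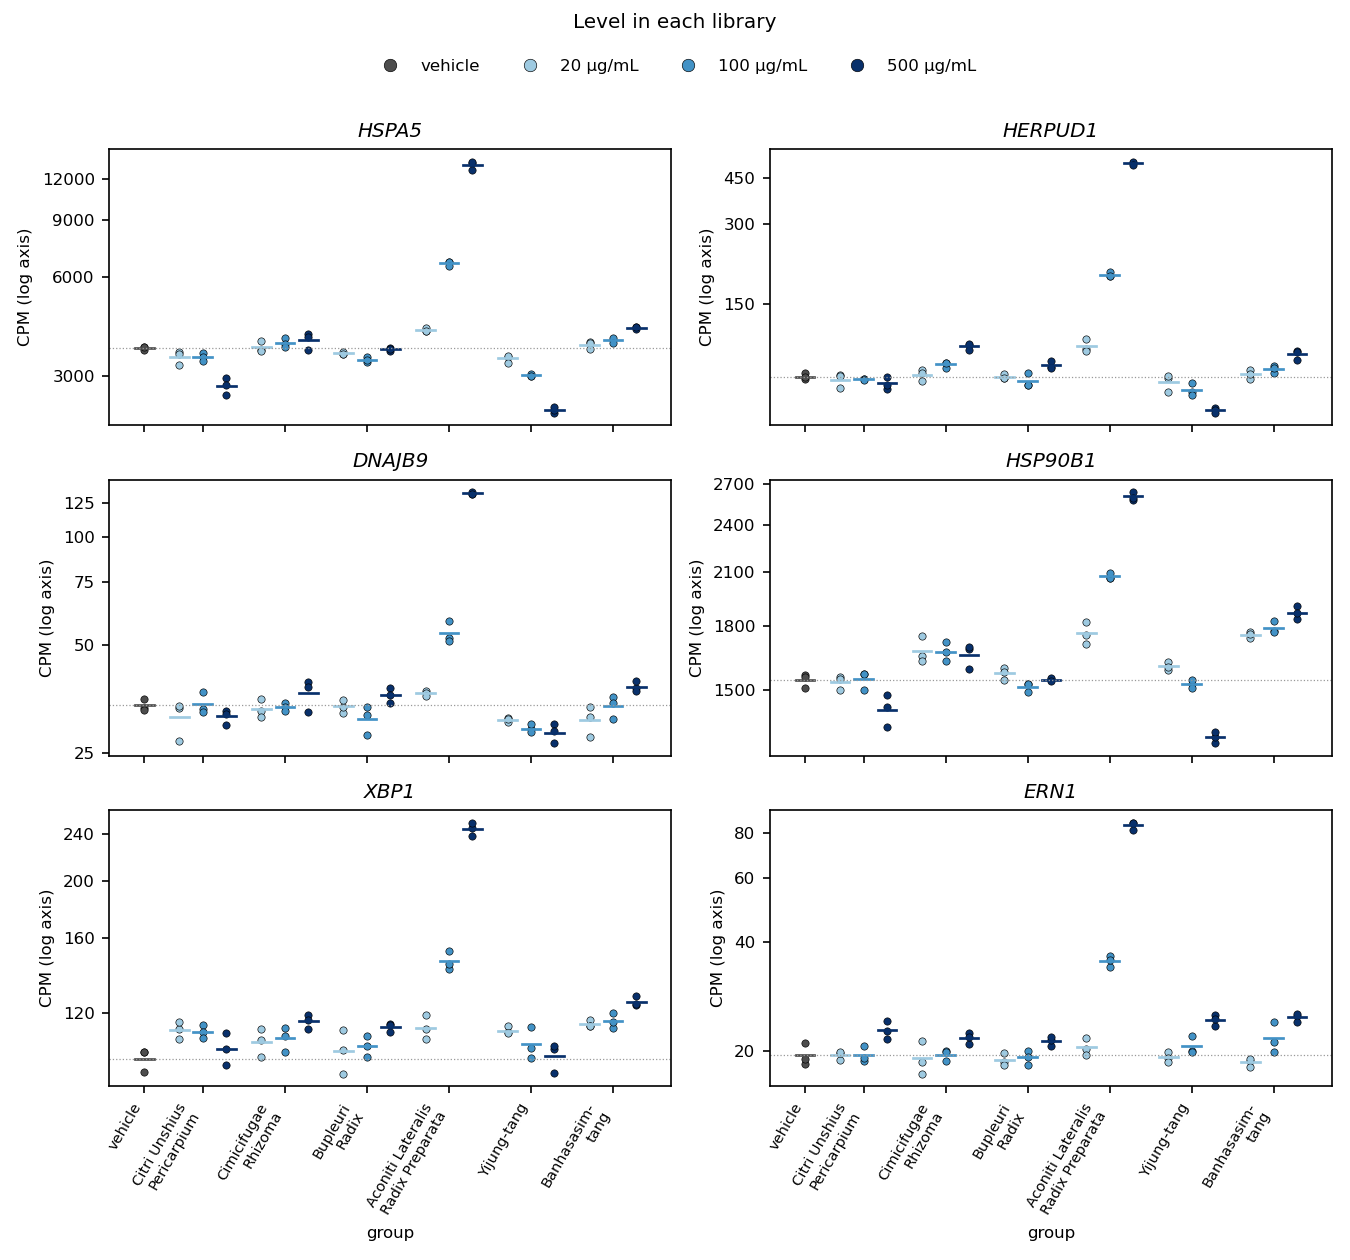
Level of 6 members in each library (points, CPM, log axis) by group, with the mean of the 3 libraries of a group as a short line and the vehicle mean as a dotted line. At 500 µg/mL Aconiti lies above every other group for each gene, while Yijung-tang at 500 µg/mL lies below the vehicle for HSPA5, HERPUD1, DNAJB9 and HSP90B1.

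The rise was graded by dose. At the medium dose of Aconiti 24 members rose and FKBP14 fell, where 31.1% of all genes were called in either direction, and at the low dose 9 rose and none fell, against 2.19%. Scaled by total counts alone, the split at the medium dose was 17 rises and 4 falls. The 9 at the low dose were HERPUD1, HSP90B1, HSPA5, XBP1, MANF, PDIA4, CALR, PDIA3 and HYOU1, with changes between 0.12 and 0.38. Between the medium and the low dose 22 members rose and none fell, against 20.4% of all genes called. That split was 15 rises and 2 falls when scaled by total counts alone. Between the high and the low dose 29 rose and 2 fell, against 57.8%. For 22 members the 9 libraries stood in rising dose order without overlap, as 11.9% of all genes did. For FKBP14 and CREB3L2 they stood in falling order, as they did for 1780 of the 17190 genes.

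Bupleuri shares the code set of Aconiti, and a comparison of both extracts does not use the vehicle. With the high doses 29 members were higher with Aconiti than with Bupleuri and 2 were lower, where 58.3% of all genes were called. HSPA5 differed by 1.87 (SE 0.04), HERPUD1 by 2.55 (SE 0.05) and ERN1 by 1.98 (SE 0.05). The change from the low to the high dose differed between the extracts for 29 members, against 44% of all genes. In that difference 28 were larger with Aconiti and 1, CREB3L2, was smaller.

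Other measures moved with the Aconiti doses. Mitochondrial genes took 5.14% of counts in the vehicle and 6.96%, 10.7% and 9.19% at the low, medium and high dose. The summed level of the 5 fibroblast and pericyte markers (COL1A1, COL1A2, PDGFRB, DCN, LUM) was 5591 to 5855 CPM in the vehicle and 1316 to 1422 CPM at the high dose, with all 5 called lower. That of the 5 neuron markers, with RBFOX3 near 0, was 176 to 186 CPM and 81.3 to 82.4 CPM. Of the 4 that could be tested TUBB3, SNAP25 and NEFL fell and SYT1 rose, by 0.46 (SE 0.05). The 10 astrocyte and glioma genes summed to 7119 to 7488 CPM and 6973 to 7012 CPM, a sum made up largely of VIM and CD44. All these sums were scaled by total counts alone. The TMM factors were 0.92 in the high-dose libraries and 1.00 to 1.01 in the vehicle, and would raise the high-dose sums. No direction is therefore read from the small difference in the sum of the 10 astrocyte and glioma genes. Of the 6 tested VIM rose, SLC1A2 was not called, and CD44, SOX9, NES and SLC1A3 fell, the last by 2.43 (SE 0.07). The 5 microglia and leukocyte genes, with AIF1, CX3CR1 and ITGAM near 0, summed to 152 to 160 CPM and 180 to 191 CPM, with CD68 called higher and PTPRC lower. The part of these measures in the result was not tested. Scaling by total counts alone moved the median of all genes by -0.12 at the high dose and left 29 members higher and 2 lower.

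Genes of the same pathways outside the 32 are read against the same background, in which 31.5% of all genes rose and 28.9% fell. Of 11 genes of the PERK and ATF4 arm, 10 rose at the high dose of Aconiti and none fell, with a median of 2.89. The largest rises among them were ATF3, a stress transcription factor, by 4.74 (SE 0.12), and TRIB3, a pseudokinase induced by ATF4, by 4.32 (SE 0.06). EIF2S1, the gene of eIF2α itself, was at -0.08 (adjusted p = 0.058 with edgeR). Of 30 genes of ER entry and secretion 20 rose and 3 fell, with a median of 0.22. SEC23B, a coat protein, rose by 0.87 (SE 0.03), and SAR1A, the GTPase that starts the coat, fell by 0.30 (SE 0.04).

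Other genes of degradation and folding rose more often than they fell, and their falls were near the background share of 28.9%. Of 16 further degradation genes 8 rose and 5 fell, led by DERL3 at 1.32 (SE 0.22) and SELENOS at 1.04 (SE 0.07). DERL3 had few counts, with a mean of 1.355 CPM over the 57 libraries. VCP, the ATPase that pulls substrates out of the membrane, fell by 0.26 (SE 0.04). Of 25 further folding genes 14 rose and 7 fell. The collagen chaperone SERPINH1 fell by 0.61 (SE 0.03) and FKBP7 by 0.49 (SE 0.07), while DNAJC1 rose by 0.57 (SE 0.06). Of 12 further sensor and factor genes that could be tested, 7 rose and 2 fell. Among them BBC3 (PUMA), a promoter of cell death, rose by 3.55 (SE 0.29), from counts near the floor (mean 0.63 CPM over the 57 libraries). CREB3L1, a relative of CREB3L2 known for raising collagen, fell by 0.79 (SE 0.07).

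Chaperones were lower with Yijung-tang. At its high dose 18 members fell and 3 rose against the vehicle, where 16.7% of all genes fell and 15.3% rose. The median was -0.14, beside 0.00 for all genes. The members together took 1.34% ± 0.02 (SD, n = 3) of counts, against the 1.58% of the vehicle, and the mitochondrial share was 6.91%, with a range of 5.94 to 8.21% over the 3 libraries. All 5 fibroblast and pericyte markers were called lower here too, with a sum of 4423 to 5069 CPM, and the part of these measures in the result was not tested. The sum was 5591 to 5855 CPM in the vehicle, and it was below that with the other high doses as well. It was 5175 to 5379 CPM with Citri, 5047 to 5313 CPM with Cimicifugae and 4809 to 5144 CPM with Bupleuri, where few members were called.

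HSPA5 had 3427, 3455 and 3291 CPM at the low dose of Yijung-tang, 3006, 3050 and 3003 CPM at the medium dose and 2317, 2361 and 2412 CPM at the high dose. The libraries stood in falling dose order without overlap, all below the vehicle. The change at the high dose was -0.63 (SE 0.04, adjusted p = 4.4e-19 with edgeR). HERPUD1 was at 60.3, 59.1 and 57.8 CPM at the high dose, below the vehicle's range of 77.3 to 81.6 CPM, and fell by 0.42 (SE 0.05). SEL1L was at 229, 241 and 219 CPM, below 306, 295 and 292 CPM in the vehicle, and fell by 0.37 (SE 0.04). HSP90B1 was at 1289, 1313 and 1330 CPM, also without overlap, and fell by 0.24 (SE 0.03).

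By role, 6 of the 8 lumen genes, both lectins, 3 of the 6 disulfide genes and 4 of the 7 degradation genes fell. DNAJB9 fell by 0.25 (SE 0.07, adjusted p = 0.0068 with edgeR), and without the third high-dose library its change was -0.21 (adjusted p = 0.058 with edgeR). Among the sensors EIF2AK3 fell by 0.20 (SE 0.06), while ERN1 and CREB3L2 rose. ERN1 was at 23.5, 25.1 and 24.5 CPM, above the vehicle's 18.4 to 21.1 CPM, and rose by 0.32 (SE 0.06, adjusted p = 5.8e-05 with edgeR). CREB3L2 was at 303, 308 and 291 CPM, above 267, 260 and 260 CPM in the vehicle, and rose by 0.20 (SE 0.05). OS9 also rose, by 0.10 (SE 0.03), and XBP1 was at 0.02 (SE 0.05, adjusted p = 0.80 with edgeR).

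Against the low dose of the same formula 16 members fell and 3 rose, where 21.7% of all genes were called. XBP1 was among the falls, at -0.14 (SE 0.05, adjusted p = 0.035 with edgeR). Leaving out the first high-dose library gave -0.10 (adjusted p = 0.22 with edgeR), and leaving out any of the low-dose libraries also ended that call. At the medium dose 6 members fell and none rose against the vehicle (6.28% of all genes called), namely HSPA5, SEL1L, HERPUD1, PDIA4, DERL1 and FKBP14. At the low dose 3 fell and 3 rose (6.38%), and 4 fell and 1 rose when scaled by total counts alone. Leaving out single libraries, the medium-dose count was 3 or 4 and the low-dose count 1 to 4. Between medium and low dose 1 member, HSPA5, was called (0.116% of all genes), and leaving out any low- or medium-dose library but the third low-dose one ended that call. For 6 members (HSPA5, HSP90B1, CALR, PDIA4, PDIA6 and MANF) the 9 libraries fell in dose order without overlap, as 1.66% of all genes did. For ERN1 and CREB3L2 they rose in dose order without overlap, as they did for 236 of the 17190 genes.

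Of the PERK and ATF4 genes, 2 of 11 rose at the high dose of Yijung-tang (15.3% of all genes rose and 16.7% fell) and 1, DDIT3 (CHOP), fell by 0.28 (SE 0.10). CEBPB rose by 0.92 (SE 0.13) and ATF3 by 0.74 (SE 0.16). Of 30 entry and secretion genes 17 fell and 2 rose. The translocon subunit SEC61G fell by 0.45 (SE 0.08) and the oligosaccharyltransferase subunit OSTC by 0.30 (SE 0.09), and the receptor of the signal recognition particle, SRPRA, rose by 0.24 (SE 0.03). Of 25 further folding genes 9 fell and 2 rose, of 16 degradation genes 3 fell and none rose, and of 12 sensor genes 3 fell and 1 rose.

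With Banhasasim-tang most called members were higher, by small amounts. At the high dose 16 members rose and 2 fell against the vehicle, where 7.99% of all genes rose and 8.82% fell, and the median was 0.12, beside 0.00 for all genes. Leaving out single libraries gave 13 to 16 calls in place of 18. The mitochondrial share was 6.35%, and 4 of the 5 fibroblast and pericyte markers were called lower, with a sum of 4536 to 4646 CPM, whose part in the result was not tested. ERN1 was at 25.1, 24.1 and 25.3 CPM and rose by 0.34 (SE 0.06). XBP1 was at 124, 124 and 128 CPM and rose by 0.32 (SE 0.05), MANF was at 198, 200 and 199 CPM, against 167, 157 and 159 CPM in the vehicle, and rose by 0.31 (SE 0.04). For these 3 genes all high-dose libraries lay above all vehicle libraries. XBP1 was not called between the high and the low dose (0.12, SE 0.05, adjusted p = 0.12 with edgeR). Its low-dose libraries, at 117, 114 and 114 CPM, already lay above the vehicle, as did those of Yijung-tang at 111, 114 and 111 CPM.

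HERPUD1 rose by 0.29 (SE 0.05), HSP90B1 by 0.28 (SE 0.03), CALR by 0.25 (SE 0.03) and HSPA5 by 0.21 (SE 0.04, adjusted p = 2.1e-05 with edgeR) with Banhasasim-tang. HSPA5 had 4242, 4162 and 4236 CPM, above the vehicle without overlap. FKBP14 and DERL1 fell by 0.12 (SE 0.04) and 0.11 (SE 0.03), but FKBP14 lost its call without any of 4 of the 6 libraries and DERL1 without any of 3. Of the rises, SYVN1 lost its call without any 1 of the 6 libraries, and HYOU1 without the first high-dose library (0.11, adjusted p = 0.063 with edgeR). At the medium dose 9 members rose and 1 fell (8.31% of all genes called), with 7 or 8 calls when single libraries were left out. At the low dose 5 rose and none fell (5.75%). The 5 were HSP90B1, XBP1, CALR, PDIA3 and PDIA4. Without the second vehicle library 3 members were called at the low dose. Between the high and the low dose 7 rose and none fell (6.67%), namely ERN1, DNAJB9, HERPUD1, MANF, HSPA5, PDIA4 and HSP90B1. HSP90B1 in that comparison was at 0.09 (SE 0.03, adjusted p = 0.047 with edgeR) and lost its call without any of 5 of the 6 libraries. DNAJB9, at 0.31, lost it without the first low-dose library (0.23, adjusted p = 0.058 with edgeR), and MANF, at 0.18, without the third (0.14, adjusted p = 0.059 with edgeR).

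Outside the 32 genes, 7 of the 11 PERK and ATF4 genes rose with the high dose of Banhasasim-tang and none fell, led by CEBPB at 0.87 (SE 0.13), where 7.99% of all genes rose and 8.82% fell. Of 30 entry and secretion genes 2 rose and 1 fell, and of 25 folding genes 5 rose and 1 fell. The 16 further degradation genes had a median of 0.02.

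Both formulas share a code set, and compared at the high dose 22 members were higher with Banhasasim-tang and 1 was lower, where 23.8% of all genes were called. The median difference was 0.26. HSPA5 differed by 0.83 (SE 0.04, adjusted p = 2.7e-24 with edgeR), HERPUD1 by 0.71 (SE 0.05), MANF by 0.56 (SE 0.04) and HSP90B1 by 0.51 (SE 0.03). CREB3L2 was lower with Banhasasim-tang, by -0.14 (SE 0.05). ERN1, which rose with both formulas, differed by 0.02 (SE 0.06, adjusted p = 0.82 with edgeR). The change from the low to the high dose differed for 19 members, against 10.1% of all genes, and 18 of these differences were higher with Banhasasim-tang.

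**Figure D3:**
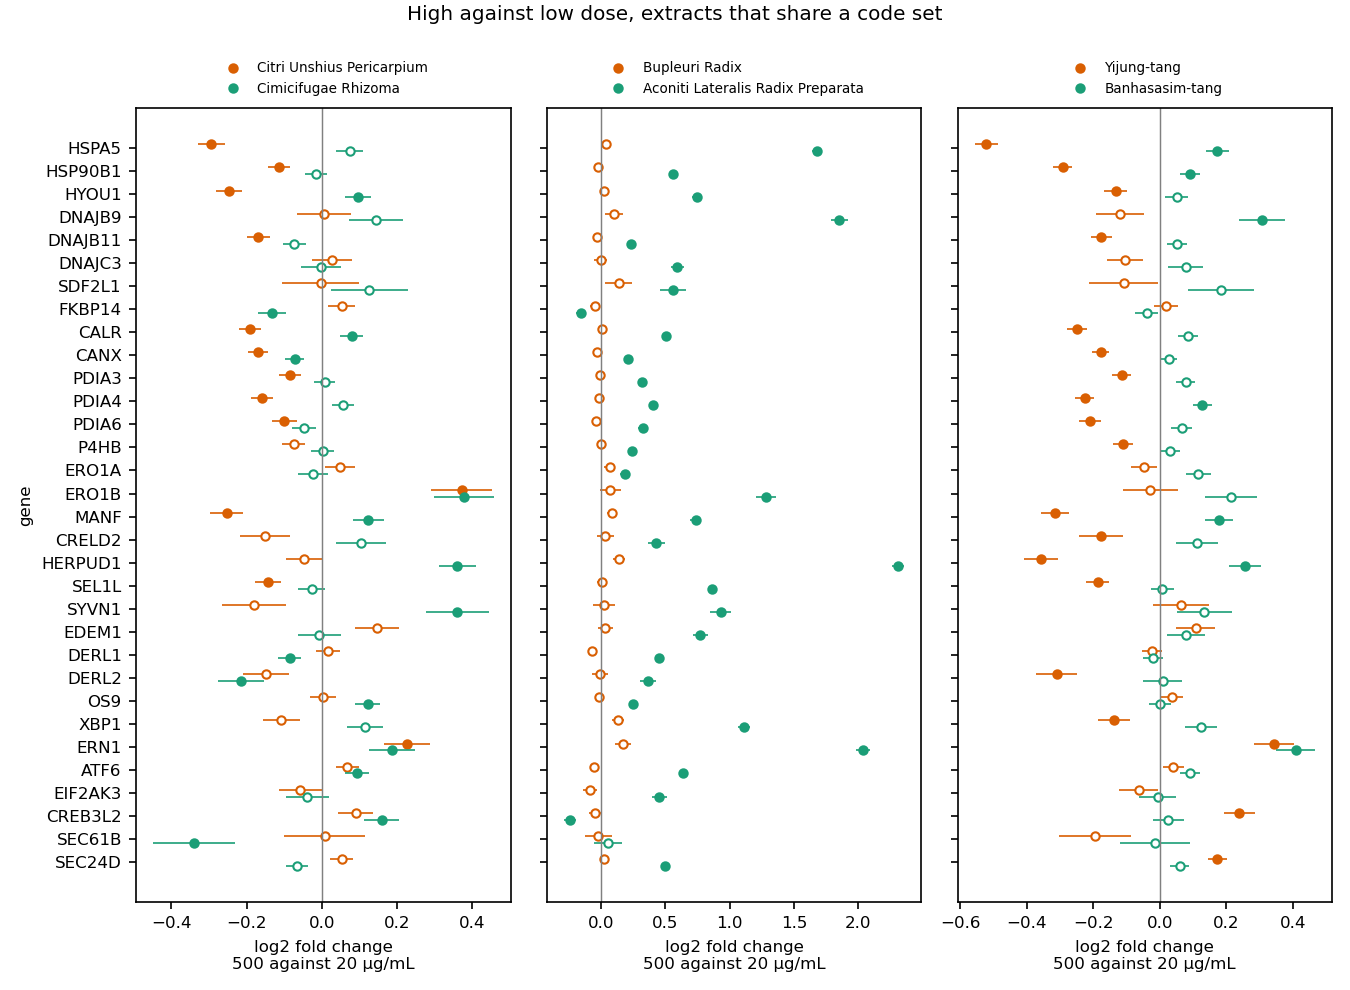
Change from 20 to 500 µg/mL of each member (log2 fold change, points, with SE as bars) for the pairs of extracts that share a code set, filled where called with edgeR. The scales of the 3 panels differ, and the Aconiti panel reaches 2.31 for HERPUD1 while HSPA5 is at -0.52 with Yijung-tang and at 0.17 with Banhasasim-tang.

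Chaperones were also lower with the high dose of Citri. There 11 members fell and 3 rose against the vehicle, where 11.8% of all genes fell and 9.81% rose, with a median of -0.08 beside 0.00 for all genes. HSPA5 was at 2955, 2805 and 2630 CPM, below the vehicle without overlap, and fell by 0.38 (SE 0.04, adjusted p = 9.1e-12 with edgeR). MANF was at 136, 130 and 124 CPM and fell by 0.31 (SE 0.04), and DNAJB11, an Hsp40 partner of BiP, was at 225, 222 and 225 CPM, below 259, 253 and 264 CPM, and fell by 0.21 (SE 0.03). Neither overlapped with the vehicle. HSP90B1 fell by 0.12 (SE 0.03), and HERPUD1 and DNAJB9 were at -0.08 (SE 0.05, adjusted p = 0.24 with edgeR) and -0.10 (SE 0.07, adjusted p = 0.34 with edgeR).

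ERO1B, ERN1 and CREB3L2 rose with the high dose of Citri. ERO1B was at 15.4, 17.8 and 15.4 CPM, above the vehicle's 12.7 to 13.7 CPM, and rose by 0.30 (SE 0.08), with 0.23 without the second high-dose library (adjusted p = 0.058 with edgeR). ERN1 rose by 0.22 (SE 0.06), and its call was lost without the first high-dose library (0.18, adjusted p = 0.055 with edgeR) or the first vehicle library (0.19, adjusted p = 0.051 with edgeR). Against the low dose 11 members fell and 2 rose (18.2% of all genes called). Scaled by total counts alone, 7 fell and 6 rose. At the medium dose edgeR called none of the 32 (2.06% of all genes), with 3 at an unadjusted p under 0.05 and 0 by DESeq2. At the low dose it called none either (1.88%), with 7 at an unadjusted p under 0.05 and 1 by DESeq2.

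Cimicifugae, in the code set of Citri, gave rises and falls. At the high dose 11 members rose and 5 fell against the vehicle, where 15.1% of all genes rose and 17.5% fell, with a median of 0.05. Scaled by total counts alone, the split was 15 rises and 3 falls. ERO1B was at 18.5, 19.5 and 15.7 CPM and rose by 0.44 (SE 0.08), HERPUD1 was at 104, 106 and 100 CPM and rose by 0.38 (SE 0.05), and neither overlapped with the vehicle. XBP1 rose by 0.21 (SE 0.05) and HSP90B1 by 0.10 (SE 0.03), while HSPA5 was at 0.08 (SE 0.04, adjusted p = 0.083 with edgeR).

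The third high-dose library decided several other values with Cimicifugae. SYVN1 was at 76.5, 73.1 and 105 CPM, a change of 0.35 (SE 0.09), and at 0.16 without that library (adjusted p = 0.12 with edgeR). SEC61B was at 67.5, 68.7 and 42.4 CPM, against 82.0, 75.2 and 82.4 CPM in the vehicle, a change of -0.42 (SE 0.11), and at -0.23 without it (adjusted p = 0.079 with edgeR). DERL2 was at 43.0, 42.7 and 33.6 CPM, a change of -0.21 (SE 0.06), and at -0.10 without it (adjusted p = 0.21 with edgeR). FKBP14 was at 111, 119 and 102 CPM and fell by 0.22 (SE 0.04), with -0.16 without that library. All 3 libraries of FKBP14 and of SEC61B lay below the vehicle. With the third low-dose library of Citri left out as well, the values were alike and edgeR called SYVN1 (adjusted p = 0.029) and SEC61B (adjusted p = 0.0051), but not DERL2 (adjusted p = 0.14). The mitochondrial share of the high-dose libraries was 5.32 to 7.69%.

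Against the low dose of Cimicifugae 10 members rose and 5 fell (25.1% of all genes called), 13 rose and 2 fell when scaled by total counts alone, and 9 in all were called without the third high-dose library. At the medium dose 3 rose and 1 fell against the vehicle (6.63%), and 5 rose and none fell when scaled by total counts alone. Leaving out single libraries of the medium dose or the vehicle gave counts of 0 to 3. At the low dose 1 member, HSP90B1, rose (1.27%), at 0.12 (SE 0.03), and it lost its call without the first low-dose or the third vehicle library.

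Compared directly at the high dose, 15 members were higher with Cimicifugae than with Citri and 3 were lower, where 12.3% of all genes were called. HERPUD1 differed by 0.47 (SE 0.05), HSPA5 by 0.46 (SE 0.04), MANF by 0.43 (SE 0.04) and CALR by 0.34 (SE 0.03), and FKBP14 was lower with Cimicifugae by -0.15 (SE 0.04), or by -0.09 without the third high-dose library of that extract (adjusted p = 0.11 with edgeR). ERO1B differed by 0.15 (SE 0.08, adjusted p = 0.22 with edgeR). The change from the low to the high dose differed for 9 members (11.1% of all genes), of which 8 were higher with Cimicifugae. Without the 2 libraries that stood apart 8 were called, and SYVN1 (0.54, then 0.19 with adjusted p = 0.27 by edgeR), XBP1 (0.22, then 0.20 with adjusted p = 0.20 by edgeR) and FKBP14 (-0.19, then -0.10 with adjusted p = 0.35 by edgeR) were not among them.

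Among the PERK and ATF4 genes, 5 of 11 rose and 1 fell with the high dose of Cimicifugae, and 3 rose and 2 fell with that of Citri. Of all genes 15.1% rose and 17.5% fell with Cimicifugae, and 9.81% and 11.8% with Citri. CEBPB rose by 0.58 (SE 0.13) and 0.60 (SE 0.13). Of 30 entry and secretion genes 16 fell and 1 rose with Cimicifugae, with SEC61G at -0.38 (SE 0.08), and 6 fell and 3 rose with Citri, with SSR3, a subunit of the translocon-associated complex, at -0.20 (SE 0.04).

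Few members were called with Bupleuri. At the high dose XBP1 rose, at 115, 114 and 111 CPM, by 0.18 (SE 0.05, adjusted p = 0.017 with edgeR), and DERL1 fell by 0.10 (SE 0.03, adjusted p = 0.037 with edgeR), where 3.01% of all genes rose and 4.01% fell. Leaving out any 1 library of the vehicle or of this dose left 0 or 1 of the 2 calls, and scaling by total counts alone left 1 rise and no fall. HSPA5 was at 3657, 3572 and 3625 CPM, overlapping with the vehicle. At the medium dose edgeR called none of the 32 (0.413% of all genes), with 4 at an unadjusted p under 0.05 and 0 by DESeq2. At the low dose it called none (0.0756%), with 0 at an unadjusted p under 0.05 and 0 by DESeq2. Between the high and the low dose it called none (4.36%), with 5 at an unadjusted p under 0.05 and 0 by DESeq2. Of the PERK and ATF4 genes 4 of 11 rose and none fell (background 3.01% and 4.01%), led by CEBPB at 0.52 (SE 0.13) and TRIB3 at 0.36 (SE 0.06). The 30 entry and secretion genes had a median of -0.04.

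Between the medium and the low dose, edgeR called none of the 32 with Citri (0.227% of all genes, 2 members at an unadjusted p under 0.05, 0 by DESeq2), Cimicifugae (0.105%, 1 and 0), Bupleuri (0.0407%, 0 and 0) or Banhasasim-tang (0.506%, 2 and 0).

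Bojungikgi-tang had 1 library per dose and no replicate check. Its members took 1.66%, 1.61% and 1.58% of counts at the high, medium and low dose. HSPA5 had 3671, 3591 and 3513 CPM at the high, medium and low dose, near the vehicle's range of 3607 to 3676 CPM, and HERPUD1 had 82.8, 75.1 and 70.0 CPM. ERN1 had 25.2, 24.8 and 20.3 CPM, the first and second above the vehicle's range. CREB3L2 had 307, 286 and 276 CPM, all above the vehicle's range of 260 to 267 CPM. HSP90B1 had 1670, 1708 and 1635 CPM (vehicle 1510 to 1567 CPM) and XBP1 113, 107 and 111 CPM (vehicle 95.3 to 103 CPM). CALR, CANX, HYOU1, PDIA3, PDIA6, ERO1A, SYVN1 and OS9 also lay above the vehicle's range at each dose. DNAJC3, SEL1L, DERL1, EIF2AK3 and SEC61B lay below it at each dose.

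Members with an exact ER stress element of either form in the promoter window were set beside those without one. At the high dose of Aconiti all 11 with an element rose, with a median of 0.75 and a range of 0.29 to 2.7. Of the 17 without one 15 rose and 1 fell, with a median of 0.51 and a range of -0.23 to 2.10, and ERN1 and DNAJB9 were among them. With Banhasasim-tang 9 of the 11 rose and none fell, with a median of 0.21, and 6 of the 17 rose and none fell, with a median of 0.06. With Yijung-tang 7 of the 11 fell and none rose, with a median of -0.19, and 10 of the 17 fell and 3 rose, with a median of -0.14. Of all genes 31.5% rose and 28.9% fell at the high dose of Aconiti. The shares were 7.99% and 8.82% with Banhasasim-tang, and 15.3% and 16.7% with Yijung-tang. The ranges overlapped with each extract, and the difference between the 11 and the 17 was not tested.

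**Figure D4:**
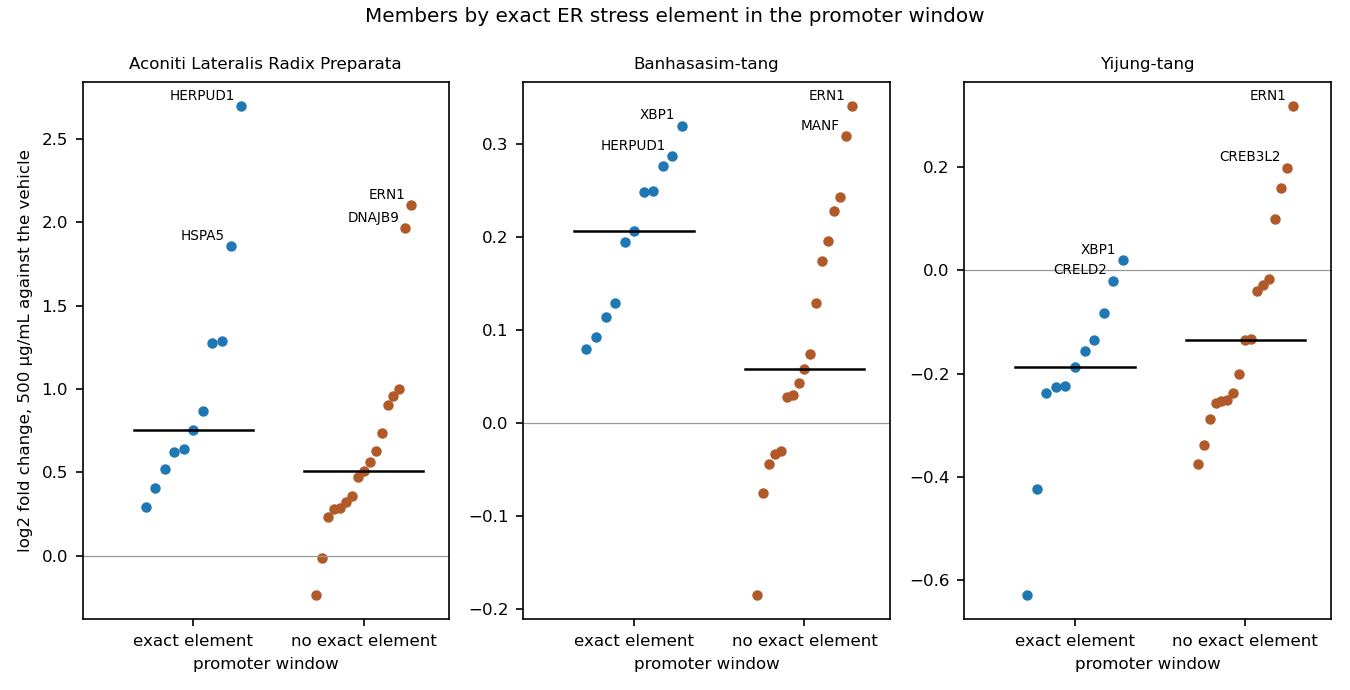
Change at 500 µg/mL against the vehicle (log2 fold change) of the 28 members with a promoter window, parted by whether the window holds an exact ER stress element of either form (11) or not (17). Lines are medians, the scales of the 3 panels differ, and the medians with an element are 0.75, 0.21 and -0.19 for Aconiti, Banhasasim-tang and Yijung-tang.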

How the data were processed

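Total RNA was made into directional libraries and read from both ends on an MGI instrument, per the labels' protocols. The submitters' processing notes name RSEM 1.3.3 and STAR 2.7.3a, as well as Trim Galore 0.6.5, FastQC 0.11.9 and the builds GRCh38 and hg38. The sources used here do not name the annotation release or strand setting, so reads of overlapping antisense genes may not have been told apart. The authors deposited RSEM's expected counts for each gene, of which 9.22% were not whole, and these were rounded.

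The 57 libraries of 19 groups were fitted together with edgeR 4.0.16 in R 4.3.3 (filterByExpr, TMM, glmQLFit, glmQLFTest), with p-values adjusted over all 17190 genes. Replicates differed by 1.74 to 21.9 in chi-square per degree of freedom over 57 pairs, so all were counted. Alternatives were DESeq2 1.42.0, its size factors, total counts, no filter, the compared groups alone, a replicate block and leaving out libraries. Positions of overlaps came from GENCODE, promoter sequences from RefSeq.

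The members and the gene lists were chosen with earlier results of these data known. Values per library are given for HSPA5, HSP90B1, DNAJB9, HERPUD1 and XBP1 and, per extract, for up to 3 called rises and 3 falls that agreed in sign between the comparisons with the vehicle and with the low dose. For the other lists up to 2 called rises and 2 falls at the high dose are named. Further members are named by role or by comparison, after their values were seen. The design text gives 2% DMSO for the vehicle and the labels 0.1%, and it lists other extracts and control compounds, which are not analysed here.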

Additional observations from a re-analysis of the deposited data

Results flagged for a closer look

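By edgeR's test of the difference itself, the change from the low to the high dose was compared between the extracts of a code set. It differed for 9 members between Cimicifugae and Citri (11.1% of all genes) and for 29 between Aconiti and Bupleuri (44%). Between Banhasasim-tang and Yijung-tang it differed for 19 (10.1%). Among these, 8 results were called in opposite directions in the extracts of a pair, a count that was not made over all genes. Between Banhasasim-tang and Yijung-tang they were HSPA5 (0.173 and -0.521, a difference of 0.694), HERPUD1 (0.257 and -0.358, a difference of 0.615), MANF (0.177 and -0.316, a difference of 0.493), HSP90B1 (0.0908 and -0.292, a difference of 0.382) and PDIA4 (0.128 and -0.226, a difference of 0.354). Between Cimicifugae and Citri they were MANF (0.124 and -0.253, a difference of 0.377), HYOU1 (0.0965 and -0.246, a difference of 0.343) and CALR (0.0789 and -0.191, a difference of 0.270). The rises with Cimicifugae were weakly held. Leaving out any 1 of its 6 libraries at these doses ended the call of CALR, leaving out the third high-dose library (0.05) or the first or the third low-dose library ended that of HYOU1, and leaving out the first or second high-dose library or the second or the third low-dose library ended that of MANF (lowest value 0.08). Likewise, 5 of the 6 libraries each ended the call of HSP90B1 with Banhasasim-tang, and the third low-dose library that of MANF.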

How the results depend on the processing

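Counts are of the 32 members called with edgeR unless stated. The shares of all genes called under each changed setting are not given, so the counts show only how the members' calls moved. With only the compared groups in the fit, the calls were 8 at the low dose of Banhasasim-tang, 4 and 1 at the high and medium dose of Bupleuri, 2 for its high against low dose, 5 and 9 at the high and medium dose of Cimicifugae, 2 for its high against low dose, 2 at the medium dose of Citri, 7 for its high against low dose, 6 for Cimicifugae against Citri, 5 for the difference of their dose changes, 12 at the medium dose of Yijung-tang and 0 for its medium against low dose. Without the 2 libraries that stood apart, they were 4 and 1 at the high and medium dose of Bupleuri, 2 and 7 at the low and medium dose of Cimicifugae and 10 and 12 at the low and medium dose of Yijung-tang. With total counts they were 5 at the low dose of Aconiti, 1 at the high dose of Bupleuri, 2 at the low dose of Cimicifugae and 0 for medium against low dose of Yijung-tang, and DNAJB11 at the medium dose of Aconiti went to -0.01275 (adjusted p = 0.789 with edgeR) from a rise of 0.10. With no filter on low counts they were 9 for high against low dose of Cimicifugae, 0 at its low dose, 4 and 1 at the low and medium dose of Citri and 1 for its medium against low dose. DESeq2 called 2 at the low dose of Cimicifugae, 1 at that of Citri and 2 for medium against low dose of Yijung-tang, and DESeq2's size factors gave 2 at the low dose of Cimicifugae.

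No strong pairing by replicate number was seen, with correlations of same-numbered deviations over all genes between -0.0562 and 0.0807. Noise in most genes keeps such correlations low, so they do not settle whether samples were paired. All 3 samples matched best with their own number in 2 of 18 pairs of groups with the vehicle and 5 of 15 within code sets. With the replicate block the calls were 1 at the medium dose of Bupleuri and 2 at the low dose of Cimicifugae, and with the replicate block within code sets 14 for the difference between Cimicifugae and Citri. Of 361 called member changes followed, the block across all groups ended none, fits of the compared groups alone ended 63, and total counts ended 33 and turned 1, DNAJB11 above.

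Leaving out 1 library at a time gave 3 to 5 calls at the low dose of Banhasasim-tang and 0 to 1 for its medium against low dose, 0 to 1 at the high dose of Bupleuri and for its high against low dose, 9 to 13 for high against low dose of Cimicifugae, 0 to 2 and 0 to 3 at its low and medium dose, 0 to 1 at the low dose of Citri, and 1 to 4 and 3 to 4 at the low and medium dose of Yijung-tang, with 0 to 1 between them. At the high dose of Aconiti it gave 31 each time. The width of the errors did not follow the level alone. At the high dose of Aconiti the SE was 0.08 for ERO1B and 0.06 for ERN1, beside 0.03 for HSP90B1. It was larger for SEC61B and SDF2L1, with mean levels of 72.4 and 54.3 CPM over the 57 libraries. Those of ERO1B and ERN1 were lower, at 14.86 and 24.44 CPM.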
